A study of Mus musculus with 8 samples.

Results

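The LRRTM and SLITRK genes encode 2 families of synaptic adhesion proteins, and all 10 of them were taken by name: Lrrtm1, Lrrtm2, Lrrtm3 and Lrrtm4, and Slitrk1, Slitrk2, Slitrk3, Slitrk4, Slitrk5 and Slitrk6. Every probe whose transcript identifier belongs to one of these genes in RefSeq was followed. This gave 13 probes for 9 of the 10 genes, out of 20144 named genes with a probe, and no probe was matched to Lrrtm4, which was not analysed here. The cells were dissociated mouse hippocampal neurons that received a lentivirus carrying GFP or Flag-Nr4a1 after 10 days in culture and were harvested 6 days later. Flag-Nr4a1 is an epitope-tagged copy of Nr4a1, an orphan nuclear receptor and transcription factor that neuronal activity induces, and both groups carried a virus. The promoter driving the transgenes and the age and strain of the mice are not given in the sources used here. There were 4 arrays per group, joined into 4 pairs by the labels, and the series addresses spine density and excitatory synapses in pyramidal neurons. Nothing in the labels says that the pairs came from separate cultures, so p-values here reflect only how far these samples vary, and that variation may be technical.

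LRRTM and SLITRK proteins are anchored in the postsynaptic membrane and carry leucine-rich repeats on the outside of the cell, with which they bind proteins of the facing axon and help to organise the synapse. LRRTM proteins bind neurexins and heparan sulfate proteoglycans, and at excitatory synapses they help to hold AMPA receptors in place. SLITRK proteins bind LAR-type receptor protein tyrosine phosphatases. Slitrk3 is known for inhibitory synapses, whereas several other SLITRK proteins are known for excitatory ones.

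A level is the log2 ratio of the Cy5 signal, from the cultured neurons, to the Cy3 signal, from a common mouse reference RNA. A level can be compared between arrays for the same probe and not between probes. Differences are Nr4a1-labelled minus GFP-labelled arrays on that scale, given with the standard error of the limma fit (n = 4 per group), and adjusted p-values are Benjamini-Hochberg values over all 25783 tested probes. A probe was tested where its Cy5 signal was well above background, as flagged by the scanner software, on at least 4 of the 8 arrays. Of the 13 member probes, 11 were tested, covering 7 genes. The background correction adds an offset that shrinks the differences of dim probes.

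The data of all arrays were alike in depth, with median Cy5 signals of 137 to 194 and between 60.9% and 69.2% of spots well above background in Cy5. Nr4a1-labelled replicate 2 stood apart in its background, with 37 spots marked as non-uniform, against 0 to 9 on the other arrays. Its highest local Cy3 background was 33931, against 45.5 to 63.5 elsewhere. The 4 GFP-labelled arrays shared 1 slide, Nr4a1-labelled replicates 1 to 3 shared another, and Nr4a1-labelled replicate 4 lay on the third, so that each slide held arrays of 1 group only. With slide as a random block, only 14 of all 25783 probes passed the test, and no member call remained. The only Nr4a1 probe (A_51_P239654) differed by 0.30 ± 0.15, with limma adjusted p = 0.192, and was higher in 3 of 4 pairs. Whether the delivered copy contains the stretch this probe detects is not given in the files, so it does not settle the labels.

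Among the member genes, Lrrtm2 was lower on the Nr4a1-labelled arrays by both of its probes and Slitrk1 was higher by 1 of its 2 probes. The other 5 tested genes, Lrrtm1, Lrrtm3, Slitrk3, Slitrk4 and Slitrk5, did not pass the test. Of the 11 tested member probes, 1 was called higher and 2 were called lower, against 12.2% of all tested probes called higher and 11.7% called lower. In all, 23.8% of tested probes were called in either direction, so that 3 of 11 is close to the share over the whole array. With median centring in place of loess, the calls over the whole array split into 3947 higher and 1570 lower, compared with 3133 and 3010, and the median of all probes moved from -0.0049 to 0.055. The member calls were the same under both. The median difference of the 11 member probes was -0.12. The groups did not overlap for 3 of these 11 probes, and for 23.8% of all tested probes.

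**Figure D1:**
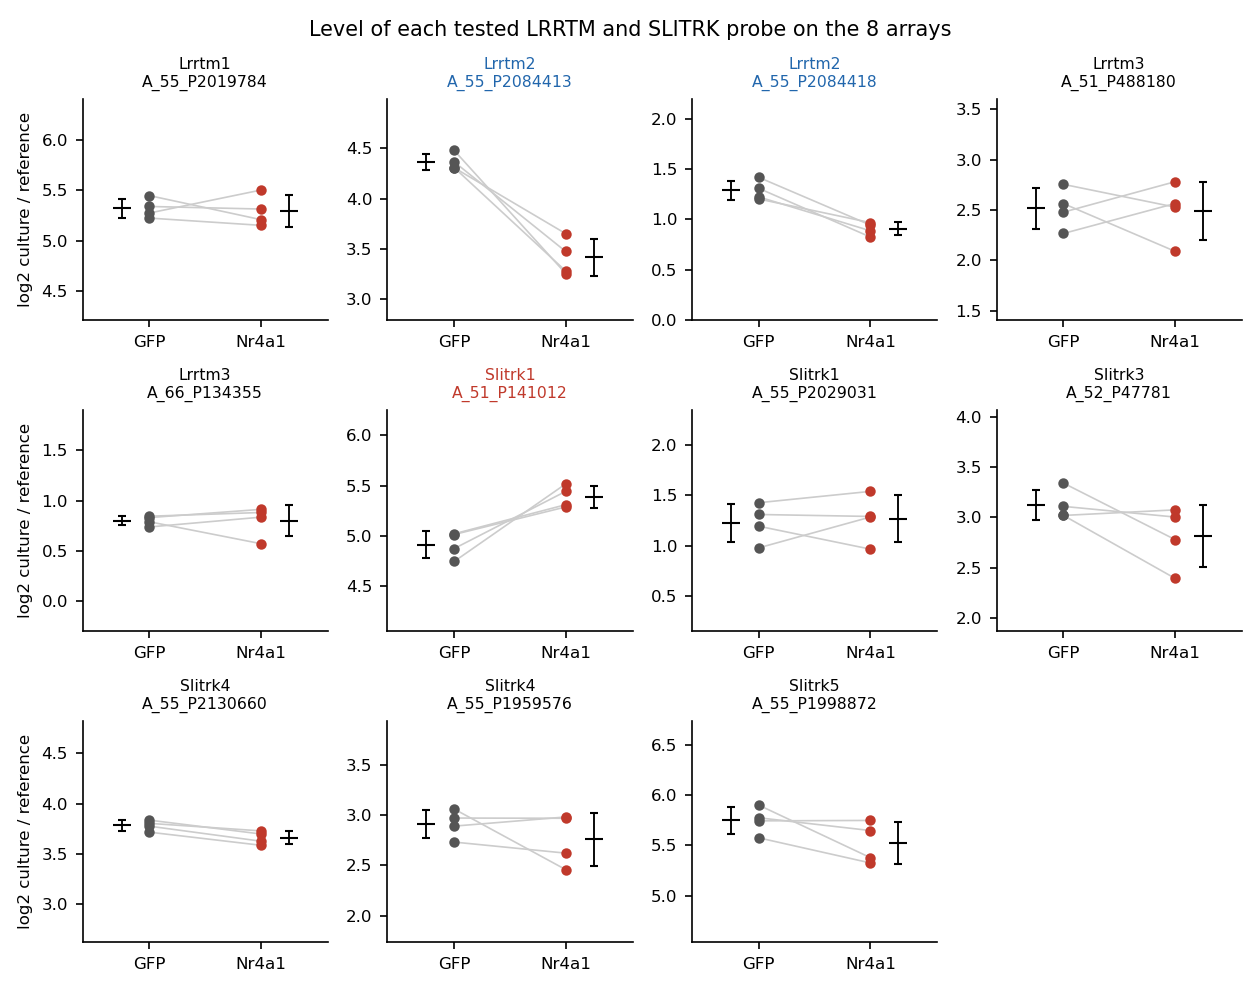
Levels (log2 culture over reference) of the 11 tested member probes on GFP-labelled (grey) and Nr4a1-labelled (red) arrays, with grey lines joining the arrays of a pair and black bars giving the group mean ± SD (n = 4). Every panel spans the same log2 range; blue titles mark the 2 Lrrtm2 probes called lower and the red title the Slitrk1 probe called higher, and in these 3 panels alone the groups do not overlap.

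Lrrtm2 encodes a neurexin ligand of excitatory synapses that is known to stabilise AMPA receptors. Its brighter probe (A_55_P2084413) read 4.31, 4.37, 4.31 and 4.48 in GFP replicates 1 to 4, and 3.65, 3.48, 3.28 and 3.26 in the Nr4a1-labelled partners of the same pairs. All 4 Nr4a1-labelled arrays lay below all 4 GFP-labelled arrays, and the means were 4.37 ± 0.081 and 3.42 ± 0.19 (SD, n = 4). The difference was -0.95 ± 0.086 (SE), a 1.93-fold lower level, with limma adjusted p = 4.56e-05. The pair differences were -0.65, -0.89, -1.03 and -1.22, so the fall was present in each pair. The difference was -0.86 within batch 1 (replicates 1 to 3), and replicate 4, the only pair of batch 2, gave the largest of the 4 pair differences.

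The same fall could be read in the unnormalised Cy5 signal of this probe. It was 1948, 2187, 1889 and 1761 on the GFP-labelled arrays and 971.5, 955, 835 and 592 on the Nr4a1-labelled arrays. These values also did not overlap, and all were far above the local background of 27 to 36.

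The dimmer Lrrtm2 probe (A_55_P2084418) read 1.201, 1.416, 1.306 and 1.221 on GFP-labelled arrays and 0.966, 0.942, 0.823 and 0.885 on Nr4a1-labelled arrays. The groups again did not overlap, and the difference was -0.38 ± 0.065, with limma adjusted p = 0.00234. Its Cy5 signals were 124 to 155 on GFP-labelled and 93.5 to 112.5 on Nr4a1-labelled arrays, much nearer to background than those of the brighter probe. Both probes therefore gave the same direction with different sizes of difference.

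Both Lrrtm2 calls were lost with slide as a random block (limma adjusted p = 0.952 and 1.00) and with the scanner software's own log ratio, which gave -0.34 for the brighter probe (adjusted p = 0.485) and -0.80 for the dimmer one (adjusted p = 0.104). They were also lost when spots with a non-uniform local background were kept in the background correction (-1.55 and -0.58). That setting changed the brighter probe on a single array, Nr4a1-labelled replicate 2, from 3.48 to 1.08, and with replicate 2 left out it gave -0.97 and -0.35, both called.

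Slitrk1 encodes a SLITRK protein that promotes neurite outgrowth and excitatory synapses. Its brighter probe (A_51_P141012) read 5.02, 4.87, 5.01 and 4.75 on GFP-labelled arrays and 5.31, 5.44, 5.29 and 5.52 on Nr4a1-labelled arrays. Every Nr4a1-labelled array lay above every GFP-labelled one. The difference was 0.48 ± 0.086, a 1.39-fold higher level, with limma adjusted p = 0.00328, and the pair differences were 0.29, 0.57, 0.27 and 0.77. The Cy5 signals were 1409 to 2475 on GFP-labelled and 2366 to 3672.5 on Nr4a1-labelled arrays, so the unnormalised ranges overlapped narrowly while the normalised levels were separate. Within batch 1 the difference was 0.38.

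The second Slitrk1 probe (A_55_P2029031) did not pass the test. It read 1.31, 1.43, 1.19 and 0.98 on GFP-labelled arrays and 1.29, 1.54, 0.96 and 1.28 on Nr4a1-labelled arrays, with overlapping groups. Its difference was 0.043 ± 0.083 (limma adjusted p = 0.755), with a 95% interval of -0.14 to 0.23. This probe was dim, with Cy5 signals of 127 to 233, so the sizes of the 2 probes' differences are not set against each other. A smaller offset did not bring out a rise in this probe. Its difference was -0.059 with the offset lowered to 16, -0.0053 without background correction and -1.14 with the software's own ratio. None of these was called. In the Cy5 channel alone this probe was called higher (0.21, limma adjusted p = 0.0276), as was the brighter probe (0.49). Where the probes lie in the Slitrk1 transcript is not given in the files used here.

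The Slitrk1 call ended with slide as a random block (0.56, limma adjusted p = 1.00) and with the software's own ratio (0.51, adjusted p = 0.230). With non-uniform spots kept in the background correction the brighter probe's difference turned to -0.28, where Nr4a1-labelled replicate 2 read 2.41 in place of 5.44. With replicate 2 left out of that setting the difference was 0.44 (adjusted p = 0.00990).

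**Figure D2:**
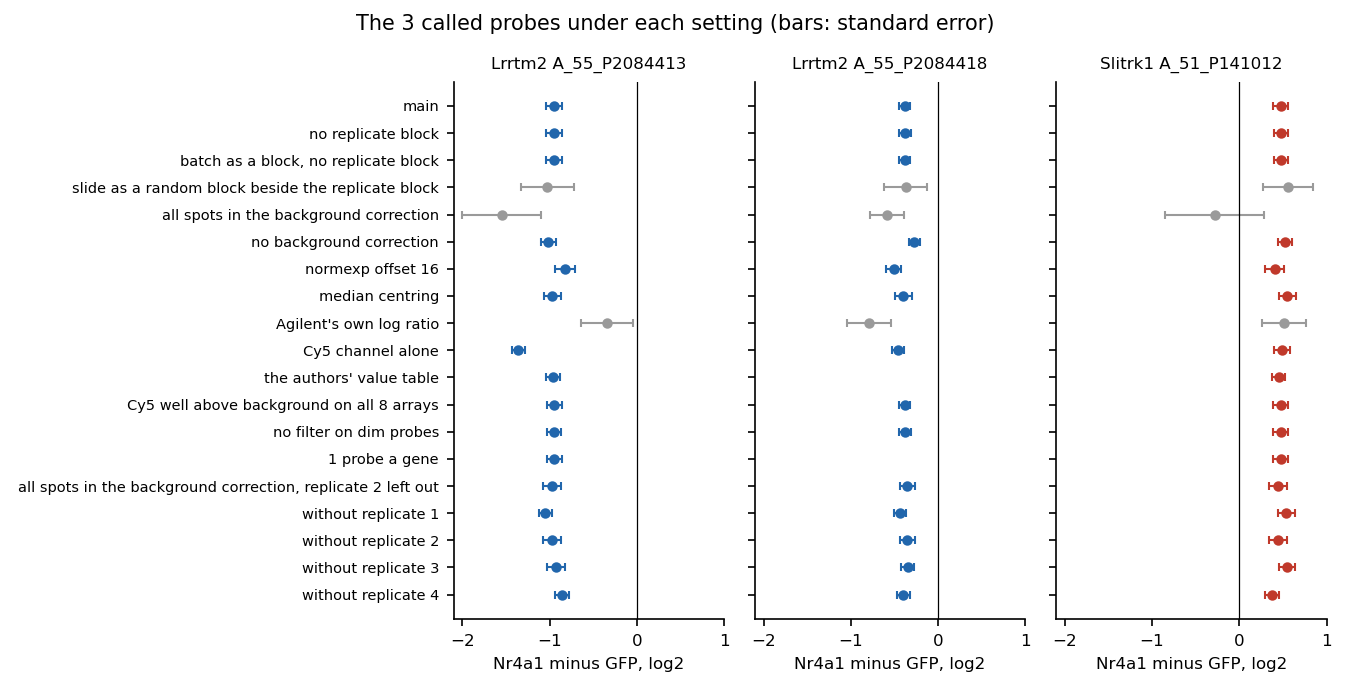
Differences (Nr4a1 minus GFP, log2) of the 3 called member probes under each processing setting, with bars for the standard error; blue and red points passed the test and grey points did not. The brighter Lrrtm2 probe stayed below 0 throughout, between -1.55 and -0.34, and the Slitrk1 probe was above 0 except for -0.28 with all spots kept.

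Slitrk3 and Slitrk5 gave the next largest differences, both negative and both short of the threshold. The Slitrk3 probe (A_52_P47781) read 3.11, 3.34, 3.02 and 3.02 on GFP-labelled arrays and 3.00, 2.78, 3.07 and 2.39 on Nr4a1-labelled arrays. It was low on Nr4a1-labelled replicates 2 and 4, and the groups overlapped. The difference was -0.31 ± 0.11 (limma adjusted p = 0.0629), and the 95% interval ran from -0.55 to -0.070. It was called lower with the batch tag in place of the pair (adjusted p = 0.0432), in the Cy5 channel alone (-0.35, adjusted p = 0.0152), in the authors' deposited table of log2 ratios (-0.32, adjusted p = 0.0337 in the same fit) and without replicate 3 (-0.43, adjusted p = 0.0176). Without replicate 2 it was -0.23 (adjusted p = 0.209) and without replicate 4 it was -0.20 (adjusted p = 0.248).

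Slitrk5, whose protein is known for its link to BDNF receptor trafficking, read 5.77, 5.57, 5.90 and 5.74 on GFP-labelled arrays and 5.65, 5.32, 5.38 and 5.75 on Nr4a1-labelled arrays (A_55_P1998872). Replicate 4 was nearly equal in both groups (pair difference 0.0043), and the other pairs gave -0.13, -0.25 and -0.52. The difference was -0.22 ± 0.083 (limma adjusted p = 0.0794), with a 95% interval of -0.41 to -0.038. It was called lower without replicate 4 (-0.30, adjusted p = 0.0482) and in the Cy5 channel alone (-0.59, adjusted p = 0.000855). Without replicate 3, the pair with the largest difference, it was -0.12 (adjusted p = 0.281).

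Slitrk4 had 2 probes that lay below 0 without passing the test. The brighter one (A_55_P2130660) differed by -0.12 ± 0.057 (limma adjusted p = 0.150) and was lower in 4 of 4 pairs, with pair differences of -0.15, -0.13, -0.14 and -0.075. Its levels were 3.72 to 3.84 on GFP-labelled arrays and 3.59 to 3.73 on Nr4a1-labelled arrays, which overlapped narrowly. The other probe (A_55_P1959576) differed by -0.16 ± 0.10 (adjusted p = 0.302), and its pair differences ran from -0.60 in replicate 4 to 0.091 in replicate 2. Without replicate 4 this probe's difference was -0.0071 (adjusted p = 0.958), and in the Cy5 channel alone it was called lower (-0.25, adjusted p = 0.0184).

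Lrrtm1 and Lrrtm3, which like Lrrtm2 encode neurexin ligands, gave differences near 0. Lrrtm1 (A_55_P2019784) read 5.34, 5.22, 5.45 and 5.27 on GFP-labelled arrays and 5.31, 5.15, 5.21 and 5.50 on Nr4a1-labelled arrays, a difference of -0.027 ± 0.077 (limma adjusted p = 0.836). The groups overlapped, and the 95% interval of -0.20 to 0.14 did not reach the -0.95 of the brighter Lrrtm2 probe. Its Cy5 signals, 10685 to 16214, were bright in both groups.

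The brighter Lrrtm3 probe (A_51_P488180) differed by -0.025 ± 0.12 (limma adjusted p = 0.904, 95% interval -0.29 to 0.24), with pair differences of 0.30, -0.47, -0.23 and 0.30. The pairs did not share a direction. The dimmer one (A_66_P134355) differed by -0.00044 ± 0.069 (adjusted p = 0.997), with Cy5 signals of 81 to 131. The signs of Lrrtm1, of both Lrrtm3 probes and of the dimmer Slitrk1 probe turned under several settings, and no direction is read from them.

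**Figure D3:**
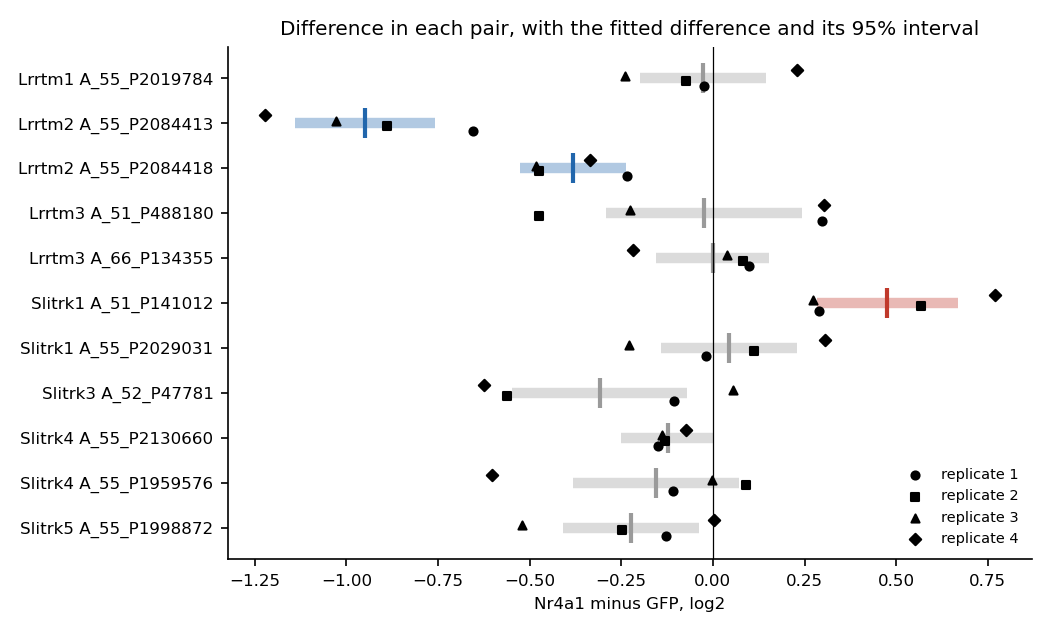
Difference (Nr4a1 minus GFP, log2) in each of the 4 pairs (symbols), the fitted difference (vertical tick) and its 95% interval (bar) for the 11 tested member probes, with blue for lower, red for higher and grey for not called. All 4 symbols lie on 1 side of 0 for both Lrrtm2 probes, the brighter Slitrk1 probe and the brighter Slitrk4 probe.

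Slitrk2 and Slitrk6 were not well above background on any of the 8 arrays, and neither was tested. Slitrk2 (A_55_P1952240) had Cy5 signals of 40 to 54 over local backgrounds of 26 to 32.5. Slitrk6 (A_51_P503822), known for its role in the inner ear and retina, had Cy5 signals of 48 to 53 over backgrounds of 25 to 33. A difference in either gene was not detectable on these arrays.

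**Figure D4:**
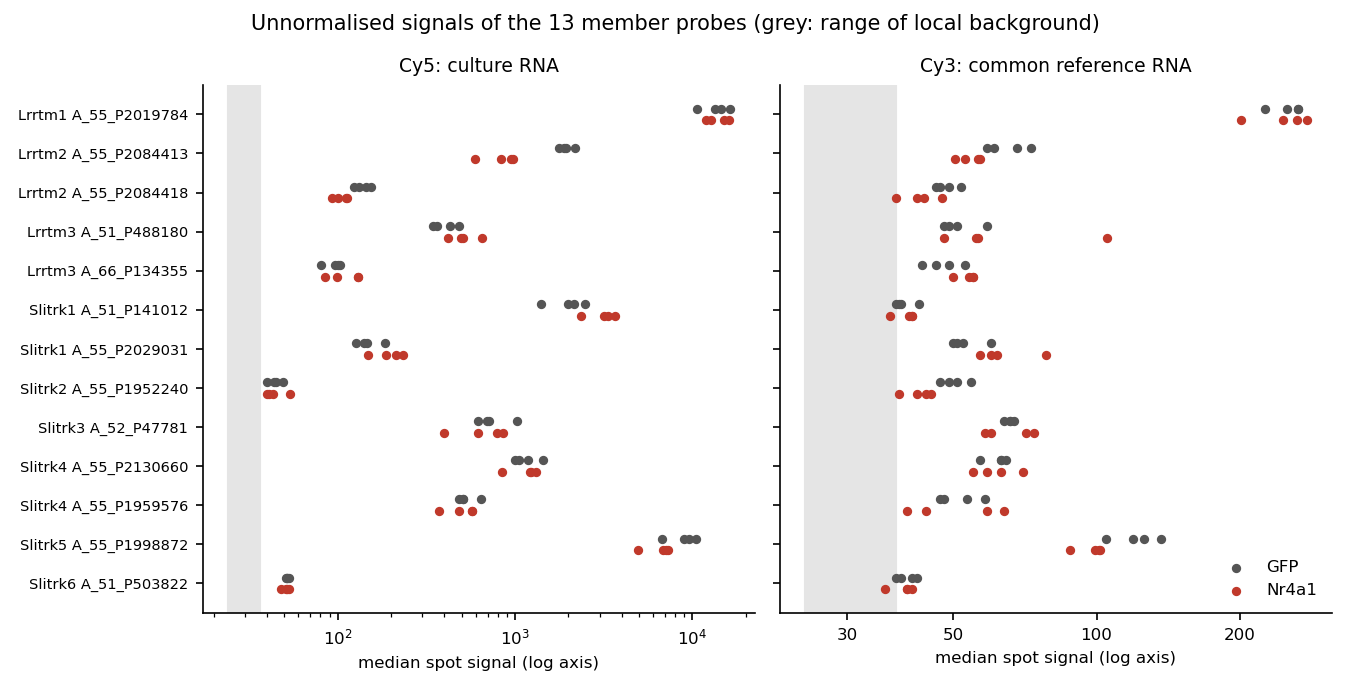
Median spot signals before normalisation (log axes) of the 13 member probes in the Cy5 channel (culture RNA, left) and the Cy3 channel (reference RNA, right), with grey points for GFP-labelled and red for Nr4a1-labelled arrays and a grey band for the range of local backgrounds. The Cy5 signals of the brighter Lrrtm2 probe separate the groups at 1761 to 2187 against 592 to 971.5, and Slitrk2 and Slitrk6 lie near the band; signals of different probes are not comparable as levels.

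The members differ in where they lie in the genome. In the RefSeq annotation of GRCm38.p6, Lrrtm1 lies within the span of Ctnna2, Lrrtm2 within that of Ctnna1 and Lrrtm3 within that of Ctnna3, the genes of the alpha-catenins, which link cadherins to actin. Ctnna1, the host of Lrrtm2, differed by 0.073 ± 0.065 (limma adjusted p = 0.458), with levels of -2.98 ± 0.14 on GFP-labelled and -2.91 ± 0.13 on Nr4a1-labelled arrays (SD, n = 4). The host was thus not called where Lrrtm2 was called lower. Ctnna2 differed by 0.0070 ± 0.095 (adjusted p = 0.967), and its sign turned under several settings. Ctnna3 was well above background on 0 of 8 arrays.

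Slitrk1, Slitrk6 and Slitrk5 are consecutive protein-coding genes on chromosome 14. On these arrays the first was called higher by its brighter probe, the second was not well above background, and the third was not called. RefSeq promoter windows of GRCm38.p6, the 250 bases before the annotated start, were used for 8 of the 10 members (10 windows). Lrrtm2 and Slitrk4 were not searched. The windows of Slitrk1 and Slitrk5 are shown 5′ to 3′ on the strand of the gene because these genes share a neighbourhood but not a response that passed the test. Capitals mark each CG step.
Slitrk1, minus strand, chr14:108914240-108914489: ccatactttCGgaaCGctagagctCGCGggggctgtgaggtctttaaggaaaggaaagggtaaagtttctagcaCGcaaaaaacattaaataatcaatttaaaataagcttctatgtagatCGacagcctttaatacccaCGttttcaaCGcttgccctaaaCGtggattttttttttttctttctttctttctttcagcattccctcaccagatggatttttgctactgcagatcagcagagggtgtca
Slitrk5, plus strand, chr14:111675777-111676026: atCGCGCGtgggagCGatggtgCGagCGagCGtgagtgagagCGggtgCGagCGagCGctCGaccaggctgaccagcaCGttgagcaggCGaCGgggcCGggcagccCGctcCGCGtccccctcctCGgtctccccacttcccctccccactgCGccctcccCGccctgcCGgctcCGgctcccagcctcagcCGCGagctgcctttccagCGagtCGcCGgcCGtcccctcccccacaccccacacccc
The Slitrk1 window was 40.4% G or C with 9 CG steps, below the median of all 32851 windows in base content (52.4%) and above it in CG steps (6). The Slitrk5 window was 74.8% G or C with 30 CG steps.

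NR4A receptors are known to bind the NBRE, the 8-letter element AAAGGTCA, and its shorter core AGGTCA, which lies within it. Searched on both strands, the NBRE was found in none of the 10 member windows and in 1.34% of all windows, and AGGTCA in none of the 10 and in 14% of all windows. The CRE, TGACGTCA, to which the activity-regulated factor CREB binds, was found in 1 of the 10, a Slitrk2 window, and in 1.55% of all windows. The windows searched do not include one for Lrrtm2, the gene called lower. No match says only that these letters are not in this window.

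Genes of the same adhesion system, termed partners here, were called in both directions. The list holds known binding partners of the 2 families, and also other synaptic organisers, scaffolds, AMPA receptor subunits and alpha-catenins. Of 51 genes listed by role, 46 were tested with their brightest probe, and 9 were called higher, 13 lower and 24 not called, with a median difference of -0.054 beside -0.0049 over all tested probes. These counts stand beside the 12.2% and 11.7% called over the array. With slide as a random block, none of the partner calls remained. Without the replicate block, 6 were called higher and 12 lower. With the software's own ratio 1 was called higher and 7 lower, and keeping non-uniform spots in the background correction left none called by limma, although 2 were higher and 10 lower at an unadjusted p under 0.05.

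Genes of the known LRRTM binding partners, neurexins and heparan sulfate proteoglycans, were called in both directions. Among the neurexins, Nrxn2 was called lower (-0.32 ± 0.072, limma adjusted p = 0.0102) and Nrxn3 was called higher (0.39 ± 0.086, adjusted p = 0.00884). The second Nrxn2 probe was also called lower (-0.44). Of the 3 other tested Nrxn3 probes, 1 was called higher (0.47) and the others were not called (0.22 and 0.19, adjusted p = 0.120 for both). Of 9 tested heparan sulfate proteoglycans, 2 were called higher and 2 lower, and Sdc1 (0.44 ± 0.068), Sdc3 (-0.40 ± 0.064) and Gpc3 (-0.33 ± 0.067) had the smallest p-values. The Gpc3 call was lost without background correction (limma adjusted p = 0.0824), in the Cy5 channel alone (0.0849) and with the software's own ratio (0.168).

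All 3 LAR-type phosphatases, the receptors of SLITRK proteins, passed the test, in opposite directions. Ptprf differed by -0.33 ± 0.058 (limma adjusted p = 0.00295) and Ptprd, the receptor known for Slitrk3, by -0.29 ± 0.067 (adjusted p = 0.0118), with a second probe at -0.19 (adjusted p = 0.05004). Ptprs, a receptor of Slitrk1, differed by 0.26 ± 0.080 (adjusted p = 0.0376). Each was the same in direction in 4 of 4 pairs. The Ptprs call was lost without the replicate block (adjusted p = 0.105), without background correction (0.0510) and with a normexp offset of 16 (0.0790). The Ptprd call was lost with offset 16 (limma adjusted p = 0.0954) and with the software's own ratio (0.504).

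Other postsynaptic organisers with leucine-rich repeats gave 1 called higher, 4 called lower and 8 not called of 13 tested. Flrt3, a ligand of latrophilins, was lower by all 3 of its probes, at -0.67 ± 0.073 (limma adjusted p = 0.000138), -0.56 and -0.45. Lrfn3 differed by -0.32 ± 0.074, and Flrt2 by -0.40 ± 0.076 with its brightest probe but by -0.044 with its other probe (adjusted p = 0.769). Among other ligands of the same receptors, Nlgn2, the neuroligin of inhibitory synapses, differed by -0.29 ± 0.074 (adjusted p = 0.0189), Nlgn3 by 0.31 ± 0.097 (adjusted p = 0.0422) and Nlgn1 by -0.032 ± 0.096 (adjusted p = 0.845). The second Nlgn3 probe differed by -0.028 (adjusted p = 0.774), and the Nlgn3 call was lost without the replicate block (adjusted p = 0.0662), without background correction (0.128) and with offset 16 (0.172).

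The secreted or presynaptic partners held 3 of 5 called higher and 2 not called. Cbln1 (0.46 ± 0.075) and Cbln2 (0.35 ± 0.073), cerebellins that bridge neurexins to postsynaptic receptors, and Ntng1 (0.49 ± 0.11), a netrin-G, were called higher. Cbln1 and Ntng1 changed sign with the software's own ratio (-0.079 and -0.071). The Cbln2 call was lost with that ratio (limma adjusted p = 0.106) and in the Cy5 channel alone (0.258). With non-uniform spots kept, Cbln1 (-0.11), Nrxn3 (-0.025) and Nlgn3 (-0.30) changed sign. Lrfn2, a leucine-rich repeat organiser called higher (0.19 ± 0.059), changed sign under both settings (-0.0081 and -0.21).

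On the postsynaptic side, Dlg4, which encodes the scaffold PSD-95, differed by -0.26 ± 0.065 (limma adjusted p = 0.0185), while Dlg1 (0.12 ± 0.063) and the brightest Dlg2 probe (-0.11 ± 0.11) did not pass. The second Dlg2 probe was called higher (A_55_P2072238, 0.27 ± 0.079, adjusted p = 0.0353). Of 4 AMPA receptor subunits, Gria4 (-0.27 ± 0.058, adjusted p = 0.00808) and Gria3 (-0.38 ± 0.12, adjusted p = 0.0457) were called lower. The second probe of Gria4 was not called (-0.17, adjusted p = 0.224) and that of Gria3 was called lower (-0.20, adjusted p = 0.0382). Gria3's pair differences ran from -0.83 to -0.017, and the call of its brightest probe was lost without the replicate block (adjusted p = 0.0682), without background correction (0.130) and with offset 16 (0.129). Gria1, with -0.066 ± 0.061, did not pass. With median centring, the calls of Nrxn2, Ptprf, Lrfn3, Nlgn2, Dlg4 and Gria4 no longer passed, with adjusted p from 0.0550 to 0.394.

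**Figure D5:**
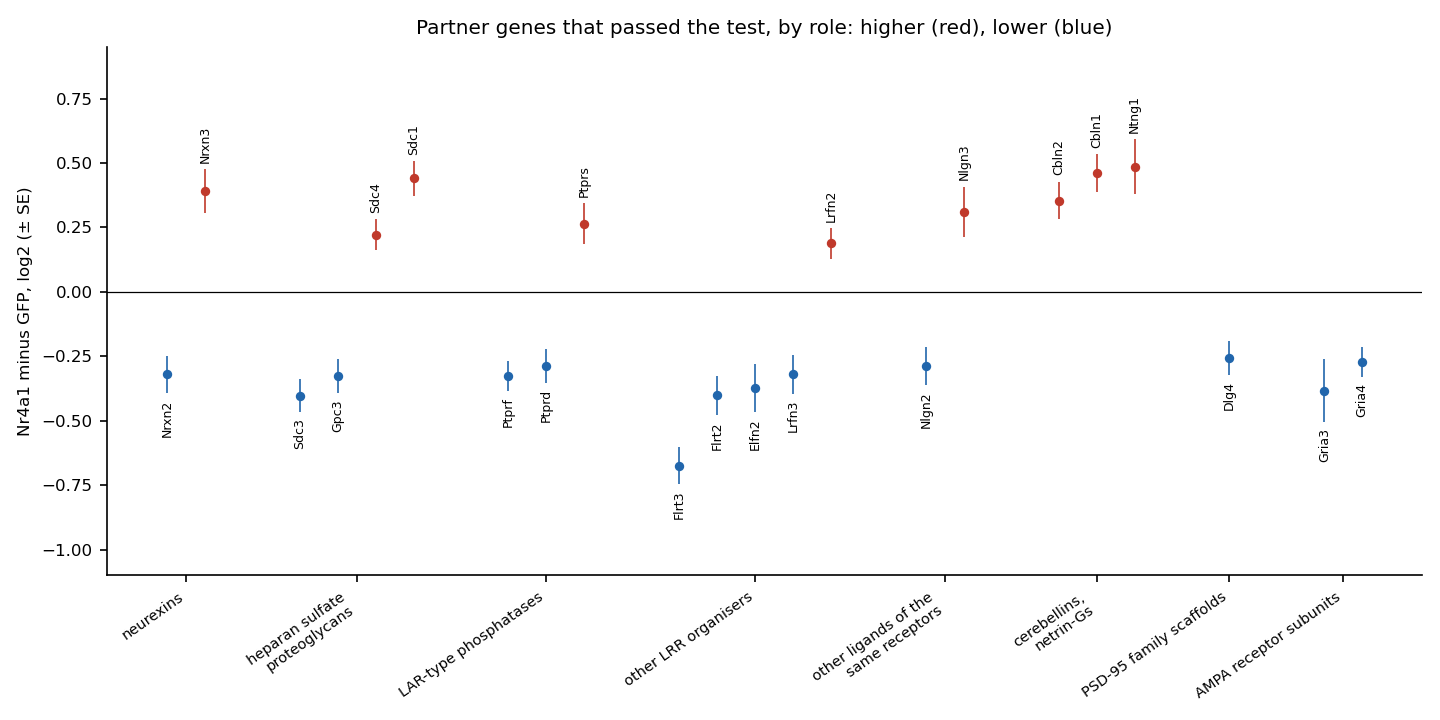
Differences (Nr4a1 minus GFP, log2, ± SE, n = 4 per group) of the partner genes that passed the test, 9 higher (red) and 13 lower (blue), grouped by role and ordered within each role; genes that were not called are not drawn, and Sdc4, Elfn2 and Lrfn2 are named because they passed the test. Called genes lie on both sides of 0 among neurexins, heparan sulfate proteoglycans and LAR-type phosphatases, and Flrt3 has the lowest value at -0.67.

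Over the 8 arrays, the probes whose levels followed the brighter Lrrtm2 probe most closely were those of Ccdc88b (Pearson r = 0.988), Sostdc1 (0.987) and Mstn (0.984), all lower on Nr4a1-labelled arrays. Of 19459 probes of other named genes, 181 correlated with it above 0.95. For the brighter Slitrk1 probe the closest were Bmper (0.990), Myo1e (0.984) and Hmg20b (0.983), with 80 above 0.95. These are descriptions over arrays that share their groups, slides and reference.

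Marker lists of cell types were read as RNA levels. They do not give cell proportions, since in bulk RNA fewer cells of a type and less RNA per cell cannot be told apart. All 10 pan-neuronal markers were well above background on 8 arrays; 1 was called higher, 1 lower and 8 not called. Their mean level was 4.70 to 4.83 on GFP-labelled and 4.63 to 4.81 on Nr4a1-labelled arrays, which overlapped. Of 7 tested glutamatergic markers, Slc17a6 was called higher (0.59 ± 0.070), Neurod6 was called lower (-0.39 ± 0.066) and 5 were not called, with mean levels of 3.322 to 3.445 and 3.329 to 3.499. Of 10 GABAergic markers, Dlx1 (0.41 ± 0.069) and Dlx2 (0.33 ± 0.063) were called higher and Sst lower (-0.23 ± 0.065), with mean levels of 2.36 to 2.57 and 2.47 to 2.59. Both lists overlapped between the groups. Markers named here were chosen because they passed the test. Lists of other cells moved with the groups that separate Lrrtm2 and Slitrk1. Of 8 tested proliferation markers 7 were called higher, with mean levels of -4.36 to -4.11 on GFP-labelled and -3.81 to -3.68 on Nr4a1-labelled arrays.

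Of 10 oligodendrocyte-lineage markers, 5 were called higher and 2 lower, with mean levels of 0.90 to 1.06 and 1.18 to 1.23. Of 10 astrocyte markers, 3 were called higher, with overlapping mean levels of 3.54 to 3.65 and 3.63 to 3.78. Of 6 tested microglial markers 1 was called lower, with mean levels of -1.25 to -1.18 and -1.46 to -1.35, and P2ry12 was well above background on 0 of 8 arrays. Of 10 endothelial, mural and fibroblast markers 2 were called lower, with mean levels of -2.63 to -2.57 and -2.78 to -2.72. The part of these cells in the Lrrtm2 and Slitrk1 differences was not tested.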

How the data were processed

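RNA of 8 samples of cultured neurons, 4 per group, was hybridised to 2-colour Agilent arrays with a common reference in Cy3 and no dye swap, per the labels. Per the file headers, Agilent Feature Extraction 11.0.1.1 gave every spot, in each channel, linear intensities for its median signal and its surroundings, and a log10 ratio of Cy5 over Cy3 after its own background and dye correction. Both this software and limma are named in the submitters' processing notes, without settings. The table deposited by the authors holds log2 ratios; its scale and direction are unstated, and were read from its correlation with the ratios computed here (0.998 to 1.00 on each array), with column medians of 0.0240 to 0.0312.

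Here, spots with a local background marked as non-uniform were left out, the median signals were corrected with normexp (offset 50), ratios were normalised by loess within each array with control spots at weight 0, outlier spots were left out and spots of a probe were averaged. Limma 3.58.1 in R 4.3.3 was fitted to these log2 values with a fixed term for each pair (a replicate block), two-sided, at an adjusted p of 0.05. The pair tag in the labels is the ground for the block; deviations from the group means correlated within pairs at -0.12, 0.28, -0.023 and 0.43. The number of arrays limits the precision.

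RefSeq (GRCm38.p6) named 26581 of 39429 probes. The members, the partner and marker lists and the treatment of non-uniform spots were chosen with earlier results of these data known. The text names all members, the 3 partners of smallest p in each role, and the 3 probes most like the Lrrtm2 and the Slitrk1 probe of smallest p; partners named beyond these are given because they passed the test or because of their other probes. The values of 1 partner gene are not reported here. Alternatives covered blocks, background correction, normalisation, channel, dim-probe filter, probe choice and each replicate.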

Additional observations from a re-analysis of the deposited data

How the results depend on the processing

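Of 18 alternatives, 14 left the count of member probes called higher at 1, and 13 left the count called lower within 1.5 times of 2. With limma, no member was called in either direction with slide as a random block (0 higher and 1 lower at an unadjusted p under 0.05), with non-uniform spots kept, called all spots below (0 and 2), and with the software's own ratio (0 and 3). The Cy5 channel alone called 2 higher and 5 lower. With 1 probe a gene 1 was lower, since the dimmer Lrrtm2 probe is then not among the 7 probes. Leaving out each replicate gave 1 to 1 higher and 2 to 3 lower. Without the replicate block, 1 member probe was higher and 2 lower, and no member call changed. Partner calls went from 9 higher and 13 lower to 0 and 0 with all spots and to 1 and 7 with the software's own ratio. No partner call remained with slide as a random block.

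Signs turned as follows. Lrrtm1 was 0.043 with the slide block, 0.053 with median centring and -0.11 to 0.044 without single replicates. Lrrtm3 A_51_P488180 was 0.065 with the slide block, 0.027 with median centring, 0.19 in Cy5 alone, -0.13 to 0.12 without single replicates, and 0.12 with all spots and replicate 2 left out, an alternative chosen after seeing the data. Lrrtm3 A_66_P134355 was 0.022 with median centring, 0.038 in Cy5 alone and -0.033 to 0.072 without single replicates. Slitrk1 A_51_P141012 was -0.28 with all spots. Slitrk1 A_55_P2029031 was -0.27 with all spots, -0.0053 without background correction, -0.059 with offset 16, -1.14 with the software's own ratio and -0.045 to 0.13 without single replicates. The cause was not tested, except that all spots changed the array of Nr4a1-labelled replicate 2.

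Over the whole array, 6143 calls became 14 with the slide block, 229 with all spots, 3265 with the software's own ratio and 4073 to 5311 without single replicates (lowest without replicate 1). In the reference channel, only Lrrtm1 and Slitrk5 were well above background on 8 of 8 arrays, and the other member probes were on 0 to 2, which limits how well their ratios are measured. Of the called probes, the brighter Lrrtm2 probe was so on 1 array, and the dimmer Lrrtm2 and brighter Slitrk1 probes on 0.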

Other observations

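The reference channel held the same commercial RNA on every array, yet the unnormalised Cy3 signal separated the groups for the brighter Lrrtm2 probe and for Slitrk5, 2 of the 11 tested member probes. For Lrrtm2 it was 73, 59, 68 and 61 on GFP-labelled arrays and 57, 53, 50.5 and 56.5 on Nr4a1-labelled arrays. For Slitrk5 it was 126, 136.5, 119 and 104.5 against 101, 101.5, 99.5 and 88. In both the Cy3 signal was lower on the Nr4a1-labelled arrays, as the Cy5 signal was. Over all tested probes, the Cy3 groups did not overlap for 20.3%. In the Cy5 channel alone the differences were -1.36 for the Lrrtm2 probe and -0.59 for Slitrk5, compared with -0.95 and -0.22 as ratios. The part of the reference signal in these ratios was not tested.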
